A study of Mus musculus with 4 samples.

Results

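The replication-dependent histone genes were followed through replicative senescence of mouse embryonic fibroblasts (MEFs). They are the clustered genes that encode the linker histone H1 and the core histones H2A, H2B, H3 and H4. Members were all array probes designed to a RefSeq coding transcript of one of these genes, taken by name. The family itself was chosen with earlier results of these data known. The rule found 59 genes with 117 probes, of 17466 named genes and 43553 probes besides controls on the array. By class there were 16 probes for 6 H1 genes, 35 probes for 16 H2A genes, 34 probes for 14 H2B genes, 18 probes for 11 H3 genes and 14 probes for 12 H4 genes.

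These genes supply the histones that package newly made DNA, and they are transcribed mainly in S phase. Their mRNAs are the known exception among animal mRNAs: they end in a stem-loop bound by the stem-loop binding protein SLBP in place of a poly(A) tail, and they are degraded when replication stops. Some of them can also be made as polyadenylated transcripts, in particular in cells that leave the cell cycle. Many members of a class encode the same or almost the same protein, so probes of a class may read several genes together. The probe sequences were not used here.

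MEFs are primary connective tissue cells from embryos, and in culture they stop dividing after a number of passages. The samples were growing cells at passage 2 and cells at passage 7, at the start of replicative senescence, all kept in DMEM with 10% fetal bovine serum and penicillin/streptomycin. Total RNA of 3 independent cultures was pooled, labelled with Cy3 by a linear amplification kit and read on 2 arrays per passage, replicates 1 and 2. The arrays of a passage may thus be technical repeats, and the p-values then measure only the spread between arrays. In bulk RNA, fewer cells of a kind and less RNA per cell cannot be told apart. The amplification kit is one that primes cDNA synthesis from poly(A) tails, as background; how far this shaped the signal of mRNAs without such a tail was not tested.

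All 4 arrays shared 1 slide and 1 scan, and the passages took different positions on it, so that passage cannot be told apart from position. The 75th percentile of the processed signal, by which each array was scaled, was between 402 and 1404, lowest on passage 7 replicate 2. Of all probes, 65.7% to 72.6% were well above background on an array, and no spot was saturated. The spread between the arrays of a passage was 0.37 at passage 2 and 0.22 at passage 7 on the log2 scale (robust SD). The labelled cell type was met by its markers: all 11 fibroblast markers with a probe were well above background on all 4 arrays, and their summed level was 9.12 and 8.83 at passage 2 and 9.48 and 10.0 at passage 7. Lum (lumican) and Pdgfra fell, by 3.00 and 2.54, and the other 9 were not called. Over the array, 8.86% of 13850 genes fell and 9.08% rose, each gene taken at its probe with the highest mean level. Of markers of other cells, 2 of 3 tested macrophage markers fell (Adgre1 and Csf1r), 3 of 6 epithelial markers fell (Krt8, Krt14 and Krt18) and 1 of 6 endothelial markers rose (Emcn, by 2.06). Their summed levels were 0.99 and 0.88 against -0.43 and -0.03 for macrophage markers, 0.23 and 0.05 against -1.96 and -1.35 for epithelial markers, and -0.99 and -1.03 against -0.42 and -0.46 for endothelial markers, passage 2 first. The endothelial markers were mixed. Kdr and Tie1 were higher on both passage 7 arrays, Cdh5 and Tek were lower on both, and Pecam1 overlapped, none of them called. Adgre1 was not well above background on passage 7 replicate 2. Ptprc, the general leukocyte marker, was not well above background on any array. The part of such cells in the histone values was not tested.

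The comparison of passage 7 with passage 2 asked what happened to these mRNAs as the cultures stopped dividing. The answer differed by histone class. Most H2B probes rose about 4- to 8-fold, single genes of the other classes rose or fell, and most H4 and H2A genes showed larger differences between the passage 2 arrays than between the passages. Every level below is the log2 processed signal relative to the 75th percentile of its array, so a value of 0 equals that percentile. Levels can be compared between arrays for 1 probe, not between probes. A probe was said to rise or fall if it differed at least 2-fold with an adjusted p under 0.05 (limma fit over all probes, Benjamini-Hochberg adjustment, two-sided); changes are passage 7 minus passage 2 on the log2 scale with their SE. Of the 117 probes, 109 (57 genes) passed the filter and were tested. The others were 1 probe of H1f1, 3 of H2bc1, 3 of H4c14 and 1 of H3c7, which were not well above background on both arrays of either passage.

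Of the 109 probes tested, 33 rose, 2 fell and 74 were not called. Over the whole array 8.72% of 30874 probes rose and 8.53% fell. By class, 21 of 31 H2B probes rose, 5 of 15 H1 probes, 3 of 35 H2A probes, 3 of 17 H3 probes and 1 of 11 H4 probes, while 1 H1 probe and 1 H2A probe fell. Of the 5 H1 rises, 3 were H1f6 probes, which passed the filter only through passage 7, and the H2A fall passed only through passage 2. With probes well above background on all 4 arrays, 2 H1 probes rose and 3 fell, and no H2A probe fell. The median change was 2.18 for H2B, 0.89 for H1, 0.76 for H4, 0.20 for H2A and 0.06 for H3, beside 0.21 for all probes tested. Both passage 7 arrays lay above both passage 2 arrays for 25 of the H2B probes, 10 of the H1 probes, 6 of the H3 probes, 4 of the H2A probes and 3 of the H4 probes; over the array this held for 38.4% of probes, and the opposite order for 27.4%. The split of 33 rises and 2 falls became 36 and 10 with scaling to the array median, 31 and 8 after quantile normalisation, and 27 and 7 in the authors' value table. Among all 30874 probes, rises and falls then numbered 2733 and 3741, 2250 and 3029, and 1472 and 2822, in the same order.

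The number of calls depended on which arrays were kept, most on passage 2 replicate 2. Without that array, no probe of the whole array design was called. The median change was then -0.12 for histone probes and 0.08 for all probes tested. Without passage 2 replicate 1, these medians were 1.35 and 0.30, and among the called histone probes only those of H2bc22 lost their calls. The medians were 0.72 and 0.30 without passage 7 replicate 1, and 0.47 and 0.09 without passage 7 replicate 2.

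**Figure D1:**
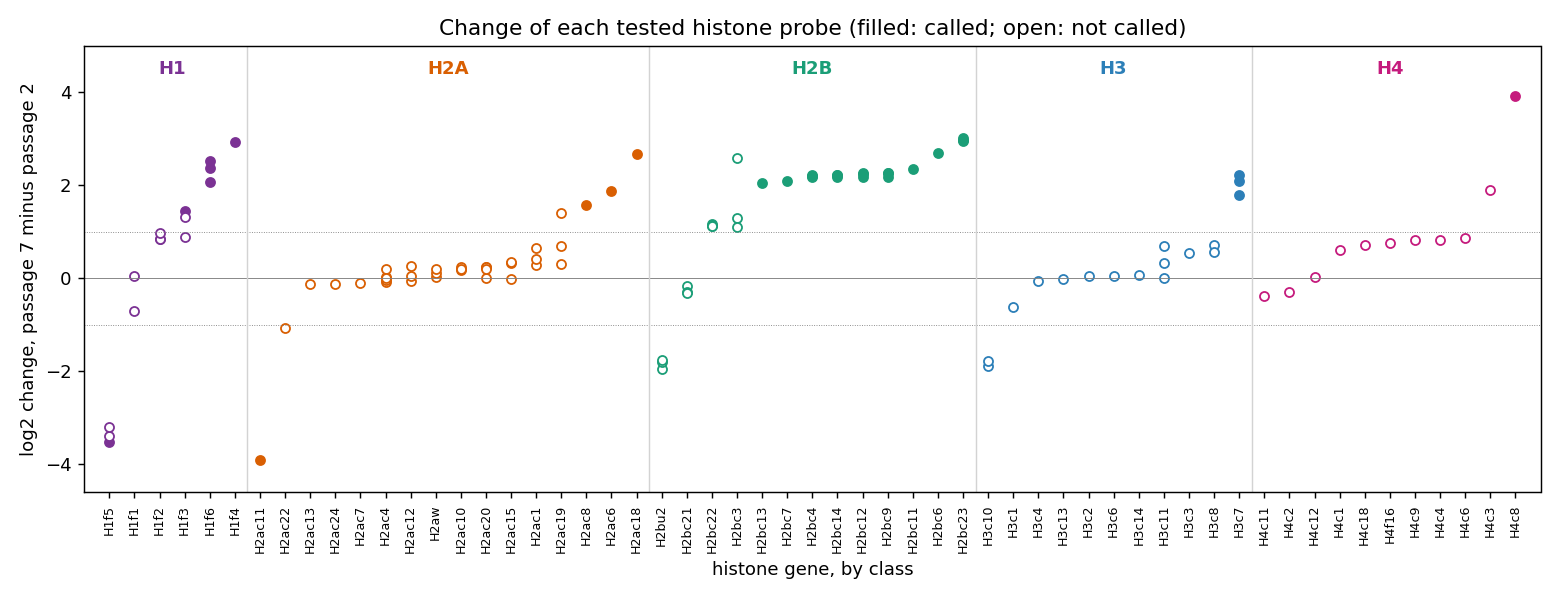
Log2 change from passage 2 to passage 7 (y axis) of each of the 109 tested histone probes, by gene and class (x axis). Filled points were called and open points were not; dotted lines mark a 2-fold change. Most H2B genes sit near 2, H2ac11 and H1f5 lie below -3, and H4c8 is the highest at 3.92.

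The passage 2 arrays did not give the same values for these genes, which was known when the family was chosen. Of the 98 histone probes well above background on all 4 arrays, 47 were at least 2-fold lower on passage 2 replicate 2 than on replicate 1 and none was at least 2-fold higher. Over the array, 7.08% of probes were at least 2-fold lower on that array and 1.60% at least 2-fold higher. The difference was uneven between classes: 9 of 11 H4 probes and 28 of 34 H2A probes were at least 2-fold lower, against 5 of 11 H1 probes, 4 of 14 H3 probes and 1 of 28 H2B probes. The median difference, replicate 2 minus replicate 1, was -2.76 for H4, -1.53 for H2A, -0.67 for H3, -0.35 for H1 and -0.34 for H2B, beside -0.12 for all probes, whose 5th and 95th percentiles were -1.17 and 0.67. At passage 7 the medians of the classes were between 0.03 and 0.26, and 2 histone probes, both of H2bc3, differed at least 2-fold, beside 4.64% of all probes.

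The direction of change therefore depended on the passage 2 array for part of the family. Against passage 2 replicate 1 the passage 7 mean had a median difference of -0.61 for H4 and -0.52 for H2A; against replicate 2 it was 2.14 for H4 and 1.01 for H2A. For H3 it was 0.09 and 1.06, and for H1 0.68 and 1.03. For H2B it was 1.96 and 2.33, so that the class was higher at passage 7 against each array. The sign was opposite against the arrays of passage 2 for 29 of 34 H2A probes, 8 of 11 H4 probes, 4 of 14 H3 probes, 1 of 11 H1 probes and 1 of 28 H2B probes. Over the array this held for 5508 of the 27889 probes well above background on all 4 arrays. A passage 7 mean at least 2-fold below one passage 2 array and at least 2-fold above the other was found for 0.144% of all probes, 40 in number, and 10 of these 40 were histone probes. They were the 5 probes of H2ac4 and 1 probe each of H4c1, H4c2, H4c11, H4c12 and H3c11.

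**Figure D2:**
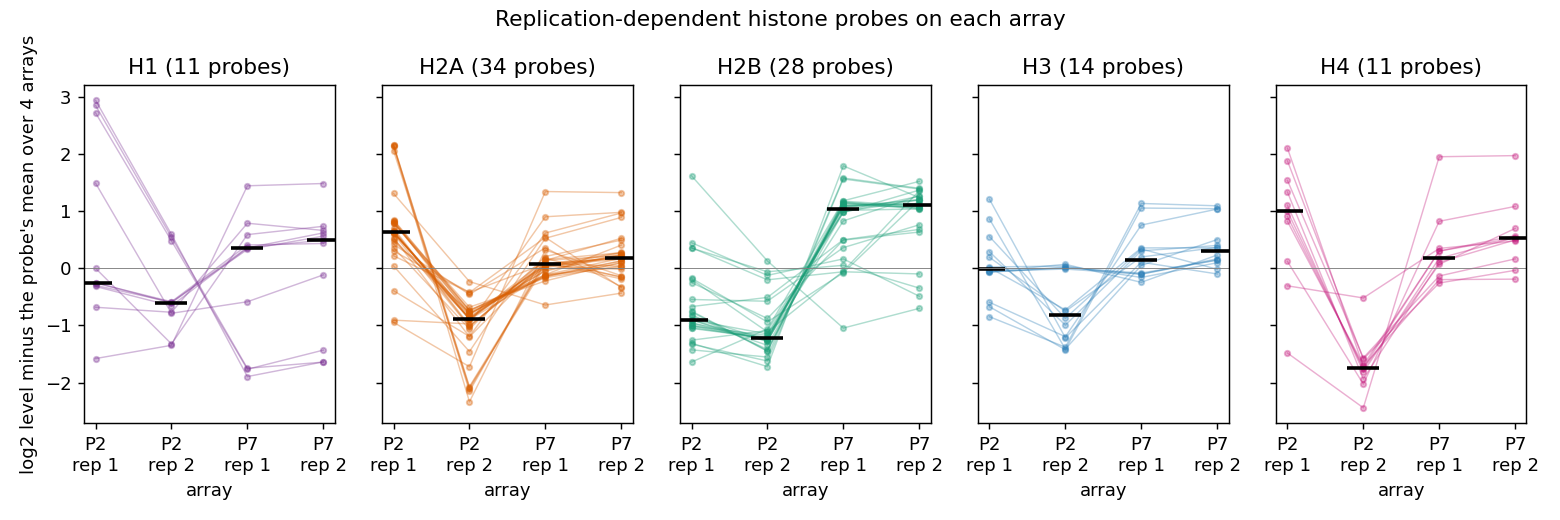
Level of each histone probe on each array (x axis) minus its mean over the 4 arrays (y axis, log2), for the 98 probes well above background on all arrays, by class. Lines join 1 probe's values and black dashes are class medians. H4 and H2A drop on passage 2 replicate 2, and H2B is low on both passage 2 arrays and high on both passage 7 arrays.

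H2B, which pairs with H2A in the nucleosome, was the class that rose. Of its 13 tested genes, 10 had at least 1 probe that rose and none had a probe that fell, and 21 of 31 probes were called. H2bc9, H2bc11, H2bc12, H2bc13 and H2bc14 had similar levels on each array and changes of 2.05 to 2.35. Such values may be the same signal read by several probes, so these genes need not be separate measurements. The 3 genes with the highest measured level, chosen for it, were H2bc4, H2bc12 and H2bc14. H2bc4 (older name Hist1h2bc) was at 3.45 and 2.76 on the passage 2 arrays and at 5.33 and 5.26 on the passage 7 arrays. The passages did not overlap, and the change was 2.19 ± 0.30, or 4.56-fold (limma adjusted p = 0.0189); its 2 other probes changed by 2.21 and 2.23. H2bc12 was at 2.22 and 1.77 and then at 4.10 and 4.38, a change of 2.24 ± 0.26 (limma adjusted p = 0.0142). H2bc14 was at 1.94 and 1.69 and then at 4.03 and 4.06, a change of 2.23 ± 0.20 (limma adjusted p = 0.0106). Both were higher on each passage 7 array than on each passage 2 array, at all 3 probes of each gene.

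The largest rise in the class was that of H2bc23. Its 3 probes went from -3.07 and -3.19 to -0.06 and -0.24, from -3.62 and -3.92 to -0.74 and -0.91, and from -5.83 and -6.24 to -2.73 and -3.28. All 3 showed the same step between the passages and smaller differences within them. The changes were 2.98 ± 0.20, 2.95 ± 0.22 and 3.03 ± 0.30, or 7.71- to 8.15-fold, with adjusted p-values of 0.00955 to 0.0112 in limma; the third was 1.56 in the authors' value table, still a called rise. The 5 others with 1 or 3 probes each moved by similar amounts at every probe: H2bc6 rose by 2.70, H2bc11 by 2.35, H2bc9 by 2.18 to 2.27, H2bc7 by 2.10 and H2bc13 by 2.05. H2bc22 rose by less, 1.12 and 1.18 at 2 of its 3 probes, and the third changed by 1.13 without being called.

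Not all H2B genes followed. H2bc21 (older name Hist2h2be), outside the main cluster, changed by -0.16 to -0.32 at 3 probes, and its passages overlapped. H2bu2 (older name Hist3h2ba), also outside the main cluster, was at -3.36 and -4.85 on the passage 2 arrays and at -6.02 and -5.68 on the passage 7 arrays at 1 probe. It was lower on both passage 7 arrays at all 3 probes, with changes of -1.75 to -1.95 and adjusted p-values of 0.0535 to 0.0908 in limma. These 3 probes were called as falls after quantile normalisation, with scaling to the array median and in the authors' value table. H2bc3 differed between the passage 7 arrays, at -5.29 and -3.89 at 1 probe, and none of its 3 probes was called (changes of 1.11 to 2.59). Its dimmest probe was not well above background at passage 2 and had means of -8.80 and -6.20, which gives at least 2.35-fold higher at passage 7 (limma adjusted p = 0.0615); this bound sets the passage 7 mean against the lowest signal well above background on each passage 2 array. H2bc1, a testis member, was well above background on passage 7 replicate 1 at 3 probes and on passage 2 replicate 1 at 1 of them, and was not tested.

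The median H2B change was 2.31 without passage 2 replicate 1, 2.17 without passage 7 replicate 1 and 2.15 without passage 7 replicate 2. For all probes tested it was 0.30, 0.30 and 0.09. H2bc22 lost its calls in each case, H2bc4 lost 2 of 3 without passage 7 replicate 1, and H2bc7 lost its call without passage 7 replicate 2. Quantile normalisation gave 20 rises, scaling to the array median 21 and the values deposited by the authors 19. The median H2B change relative to all probes was 1.97, and from 1.06 to 2.06 over the alternatives.

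H2B promoters carry a known octamer element, bound by the POU factor OCT1 with a coactivator complex in S phase. Promoters from 250 bases before to 50 after the annotated start were taken from RefSeq (GRCm38.p6) for 54 of the 59 genes. The octamer was searched as ATTTGCAT on both strands. It was found in 5 of 12 H2B promoters and 7 of 16 H2A promoters, in none of the H1, H3 and H4 promoters, and in 1.74% of 32851 promoters of the same length. Of the 4 tested H2B genes with the octamer, 3 rose (median of the gene changes 2.22), and of the 7 without it 6 rose (median 2.10). Near matches of the octamer were not searched, and its part in the rise was not tested. The sequences below show both kinds, each the 130 bases up to the gene start on the gene's strand. H2bc14 (chr13:21721914-21722043, plus strand) and H2bc12 (chr13:22035691-22035820, plus strand) have the octamer, in capitals. H2bc23 (chr13:21810200-21810329, minus strand), the gene with the largest H2B rise, has no exact match in its 300 bases. There the capitals mark CCAAT, the box bound by NF-Y, on either strand.
H2bc14: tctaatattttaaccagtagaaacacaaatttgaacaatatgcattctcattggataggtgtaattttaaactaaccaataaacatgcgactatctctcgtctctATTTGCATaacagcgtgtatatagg
H2bc12: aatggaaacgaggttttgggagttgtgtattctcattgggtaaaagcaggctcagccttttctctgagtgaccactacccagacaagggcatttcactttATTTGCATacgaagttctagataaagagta
H2bc23: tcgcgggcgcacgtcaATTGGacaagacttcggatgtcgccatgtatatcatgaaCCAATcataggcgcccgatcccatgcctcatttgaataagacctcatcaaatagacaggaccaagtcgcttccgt
CCAAT was found in all 12 H2B, all 16 H2A, all 6 H1 and all 9 H3 promoters and in 3 of 11 H4 promoters, against 37.4% of all promoters. A match of letters is not a bound site, and no binding was measured here.

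H2A genes lie beside H2B genes, often in divergent pairs that share a promoter region. The H2A class did not move with H2B: 3 of 35 probes rose, 1 fell and 31 were not called. The genes with the highest measured levels, H2ac12, H2ac13 and H2ac19, show the common form. H2ac12 was at 6.30 and 4.76 on the passage 2 arrays and at 5.36 and 5.59 on the passage 7 arrays, with a change of -0.05 ± 0.55. H2ac13 was at 6.30 and 4.72 and then at 5.28 and 5.49, with a change of -0.12 ± 0.56, and H2ac19 was at 5.75 and 4.33 and then at 5.60 and 5.88, with a change of 0.70 ± 0.52. Passage 2 replicate 1 was the highest of the 4 arrays for H2ac12 and H2ac13, replicate 2 the lowest for all of them, and the passages overlapped at these probes. At another H2ac19 probe both passage 7 arrays (1.26 and 1.63) lay above both passage 2 arrays (0.78 and -0.72). Its change was 1.41, and none of the H2ac19 probes was called. At H2ac7, H2ac10, H2ac15, H2ac20 and H2ac24 the passage 2 arrays also differed by -1.39 to -1.69, and the changes were between -0.12 and 0.36. These near-identical values may be 1 signal read by several probes, since the coding sequences are near copies.

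4 H2A genes had a probe called as a rise or a fall. H2ac18 (older name Hist2h2aa1), which lies in the smaller histone cluster, was at 2.50 and 1.72 at passage 2 and at 4.78 and 4.77 at passage 7. It was higher on both passage 7 arrays, by 2.66 ± 0.32 or 6.34-fold (limma adjusted p = 0.0151). H2ac6 went from -4.19 and -4.26 to -2.39 and -2.31, a rise of 1.88 ± 0.19 (limma adjusted p = 0.0115), and H2ac8 rose by 1.58 ± 0.35 (limma adjusted p = 0.044). H2ac11 moved the other way, from -1.83 and -3.07 to -6.39 and -6.31. It was lower on both passage 7 arrays and not well above background on the second of them, and it was called as a fall of 3.90 ± 0.45 (limma adjusted p = 0.0144). It passed the filter through passage 2, where it is higher, so the size of the fall is set against 1 measured passage 7 array, and it was not tested with the filter on all 4 arrays. The change was -2.40 in the authors' value table, still called, and -0.02 with normexp background correction, where no probe of the array was called.

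H2ac4 had the largest difference between passage 2 arrays of any histone gene. Its 5 probes were between -0.29 and 0.12 on replicate 1 and between -4.54 and -4.17 on replicate 2, while passage 7 lay in between, from -2.38 to -1.84. The passages overlapped at every probe, and the changes were between -0.09 and 0.19 with SEs of 1.39 to 1.51. H2ac22 was lower on both passage 7 arrays, with a change of -1.08 ± 0.55 that was not called. H2ac1, known as a testis gene, and H2aw changed by 0.04 to 0.66 at 3 probes each. Without passage 2 replicate 1, the median H2A change was 1.01, beside 0.30 for all probes tested. H2ac8 lost its call without either passage 7 array, and H2ac6 without passage 7 replicate 2.

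H2A and H2B genes that lie next to each other, under 1000 bases apart, formed 7 pairs with both members tested, each gene taken as the mean of its probes. The H2B gene had the higher change in 6 of the 7. In 5 pairs the H2B gene alone rose, in 1 both did (H2ac6 with H2bc4) and in 1 neither did (H2ac20 with H2bc21). The values of H2ac11 and H2bc11 were -3.90 and 2.35, the first with the limit on H2ac11 given above. The values of H2ac12 and H2bc12 were 0.09 and 2.23, those of H2ac13 and H2bc13 -0.12 and 2.05, and those of H2ac7 and H2bc7 -0.09 and 2.10. These pairs describe the same arrays and are not independent of the class counts above.

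**Figure D3:**
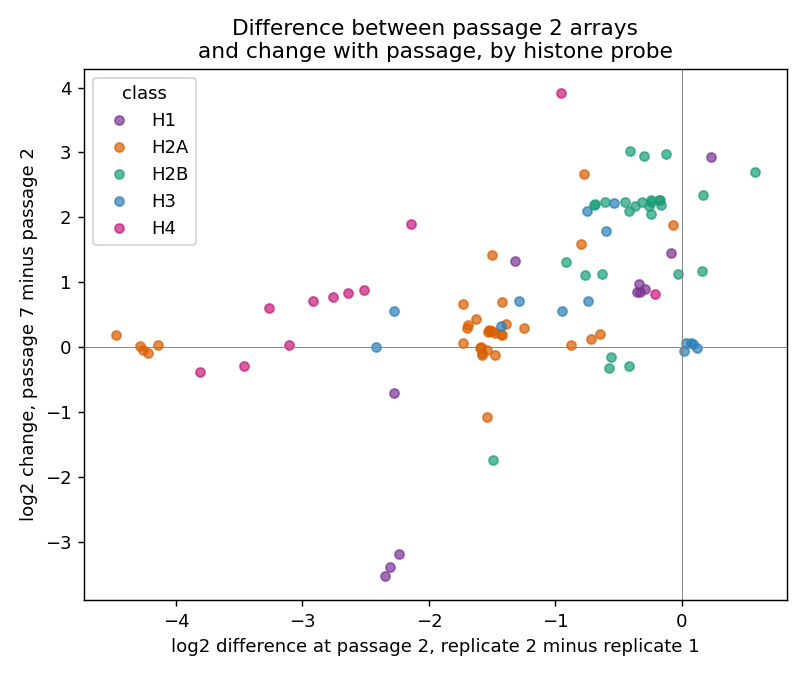
Difference between the passage 2 arrays (x axis, replicate 2 minus replicate 1, log2) and change from passage 2 to passage 7 (y axis, log2) for the 98 histone probes well above background on all arrays, coloured by class. H2B probes gather at the upper right, most H4 and H2A probes lie left of -1 near a change of 0 to 1, and the 5 H2ac4 probes lie left of -4.

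H1 linker histones bind the DNA that enters and leaves the nucleosome, and they changed one gene at a time. H1f4 was at -4.58 and -4.35 at passage 2 and at -1.56 and -1.52 at passage 7. The arrays of a passage lay close together and the passages far apart, and the rise was 2.92 ± 0.20, or 7.59-fold (limma adjusted p = 0.00955). H1f6, a testis member, was well above background at passage 2 on replicate 2 alone; its 3 probes were called as rises of 2.07 to 2.52. They passed the filter through passage 7, where they are higher, so these sizes are set against 1 measured passage 2 array, and with probes well above background on all 4 arrays the H1 rises numbered 2 (H1f4 and 1 probe of H1f3). In the authors' value table the H1f6 probes changed by 0.46 to 0.65 and the H1f3 probe by 0.44, none of them called, which left H1f4 as the 1 H1 rise there (2.00). H1f3 rose at 1 of 3 probes, by 1.45 ± 0.19, and changed by 1.32 and 0.89 at the others. H1f2, the H1 gene with the highest measured level, was at 4.09 and 3.76 and then at 4.76 and 4.78. It was higher on both passage 7 arrays at all 3 probes, with changes of 0.84 to 0.97 and adjusted p-values of 0.0538 to 0.0645 in limma.

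H1f5 went the other way and was the H1 gene on which the passage 2 arrays differed most. Its 3 probes were at 0.63 to 0.95 on passage 2 replicate 1, at -1.70 to -1.35 on replicate 2 and at -4.19 to -3.52 on the passage 7 arrays. Each passage 2 array was above both passage 7 arrays at every probe. The changes were -3.53 ± 0.81, -3.39 ± 0.79 and -3.20 ± 0.78, with adjusted p-values of 0.0485, 0.0504 and 0.0546 in limma, so that 1 probe fell by the threshold used and the others just missed it. All 3 were called without passage 2 replicate 1, where the first was -2.36, and none without either passage 7 array; the first was -1.36 with normexp. The H1f3 probe and 1 probe of H1f6 also lost their calls without either passage 7 array. H1f1 changed by 0.04 and -0.70, with overlapping passages.

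The H1 promoters share an upstream element, the AC box, searched as AAACACA on both strands. It was found in 5 of 6 H1 promoters, 2 of 16 H2A promoters, 2 of 12 H2B promoters and none of the H3 and H4 promoters, against 7.18% of all promoters. H1f4, which rose, and H1f5, which had the lowest values of the class at passage 7 relative to passage 2, both have it, so they are shown together. Each line is the 130 bases up to the gene start on the gene's strand, which is minus for both (chr13:23622559-23622688 and chr13:21780626-21780755 of GRCm38.p6), with the AC box in capitals.
H1f4: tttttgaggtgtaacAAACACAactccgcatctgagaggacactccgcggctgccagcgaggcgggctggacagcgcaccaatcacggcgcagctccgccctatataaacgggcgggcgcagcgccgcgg
H1f5: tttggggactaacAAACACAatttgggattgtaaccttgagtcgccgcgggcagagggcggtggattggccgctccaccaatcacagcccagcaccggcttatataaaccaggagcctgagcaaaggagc
In both promoters the box lies near the upstream end of the 130 bases shown. The part of the box in the changes of these genes was not tested.

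H3c14, H3c13 and H3c6, the 3 with the highest measured levels, changed little between the passages. H3c14 was at 4.35 and 4.39 and then at 4.30 and 4.56, H3c13 at 4.24 and 4.36 and then at 4.05 and 4.53, and H3c6 at 4.15 and 4.22 and then at 4.13 and 4.35. The passages overlapped for each, and with H3c2 and H3c4 their changes were between -0.06 and 0.06 with SEs of 0.20 to 0.25. The levels of these genes were similar on each array and may be the same signal read by several probes. The passage 7 arrays of H3c13 differed by 0.48, the most among H3 probes well above background on all 4 arrays, while the passage 2 arrays of these 5 genes differed by 0.02 to 0.13, beside a median of -1.53 for the H2A probes.

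H3c7 was the H3 gene that rose. Its 3 tested probes were at -3.78 to -3.57 on passage 2 replicate 1, at -4.32 to -4.18 on replicate 2 and at -2.23 to -1.80 on the passage 7 arrays. The passages did not overlap, and the changes were 2.23 ± 0.26, 2.09 ± 0.31 and 1.79 ± 0.29 (limma adjusted p = 0.0143 to 0.0248). A further H3c7 probe was not well above background on any array. The lower 2 changes lost their call without either passage 7 array. H3c10 was lower on both passage 7 arrays at 2 probes, with changes of -1.89 ± 0.46 and -1.78 ± 0.50 that were not called (limma adjusted p = 0.0545 and 0.0754) and no level well above background on passage 7 replicate 2. H3c11 and H3c3 had the largest differences between passage 2 arrays in the class, -2.42 and -2.27, and changes of 0.01 ± 0.83 and 0.55 ± 0.79. H3c1 and H3c8 changed by -0.61 and by 0.56 to 0.71. Without passage 2 replicate 1, the median H3 change was 1.03, beside 0.30 for all probes tested.

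H4, the partner of H3 in the nucleosome, had the widest difference between passage 2 arrays and the largest single rise. H4c8 was at -0.88 and -1.83 at passage 2 and at 2.55 and 2.57 at passage 7. Both passage 7 arrays lay far above both passage 2 arrays, and the rise of 3.92 ± 0.37, or 15.1-fold, was the largest of any histone probe tested (limma adjusted p = 0.0109). It kept its call without passage 2 replicate 1 and without either passage 7 array. H4c9 was also higher on both passage 7 arrays, from -1.01 and -1.23 to -0.36 and -0.23, a change of 0.83 ± 0.20 that was not called (limma adjusted p = 0.0569).

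The other 9 tested H4 genes were at least 4-fold lower on passage 2 replicate 2 than on replicate 1, and none was called. H4c4, the H4 gene with the highest measured level, was at 3.70 and 1.05 at passage 2 and at 3.09 and 3.32 at passage 7. H4c6 was at 3.26 and 0.74 and then at 2.74 and 3.01, and H4c18 at 2.99 and 0.07 and then at 2.06 and 2.42. For all of them passage 7 lay between the passage 2 arrays, and their changes were 0.83 ± 0.90, 0.87 ± 0.86 and 0.71 ± 1.00. H4c11 and H4c2 had the largest differences, -3.81 and -3.46; H4c11 went from -1.63 and -5.45 to -3.93 and -3.92, and H4c2 from 0.77 and -2.69 to -1.36 and -1.14. Their changes were -0.39 ± 1.28 and -0.29 ± 1.17, and without passage 2 replicate 1 they became called rises of 1.52 and 1.44. In that setting the median H4 change was 2.14, beside 0.30 for all probes tested. H4c3 was above both passage 2 arrays at passage 7, with a change of 1.90 ± 0.74 that was not called. The 3 probes of H4c14 were well above background on passage 2 replicate 1 alone.

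The H4 promoters are known for a proximal element whose core binds the zinc finger factor HINFP, a regulator of H4 genes at the entry into S phase. Its core was searched as GGTCCG on both strands and was found in 10 of 11 H4 promoters, 1 of 12 H2B promoters, 1 of 9 H3 promoters and none of the H1 and H2A promoters, against 8.25% of all promoters. H4c8, the gene that rose, is shown beside H4c4, which has the highest measured level and was not called. The capitals mark the core. H4c4 (chr13:23581438-23581567, plus strand of GRCm38.p6) is given for the 130 bases up to the start; H4c8 (chr13:23530919-23531048, plus strand) for 125 bases before and 5 after it, because the core there runs over the annotated start.
H4c4: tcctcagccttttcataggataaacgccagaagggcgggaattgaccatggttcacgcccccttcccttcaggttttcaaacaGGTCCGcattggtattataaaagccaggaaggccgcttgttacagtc
H4c8: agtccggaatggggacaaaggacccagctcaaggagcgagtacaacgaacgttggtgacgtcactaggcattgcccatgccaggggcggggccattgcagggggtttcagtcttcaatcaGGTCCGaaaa
The core lies upstream of the start in H4c4 and at the start in H4c8. TATAAA on either strand was found in 7 of 11 H4 promoters, 4 of 6 H1, 10 of 16 H2A, 6 of 12 H2B and 4 of 9 H3 promoters, against 13.6% of all promoters.

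Genes that act with these histones mostly fell or were not called. Each was represented by its probe with the highest mean level, and on this measure 8.86% of 13850 genes fell and 9.08% rose. Of 29 tested genes of the G1/S transition and S phase, 21 fell and none rose, with a median change of -1.66. Ccna2 (cyclin A2) fell by 3.46 ± 0.22 and Pola1, the catalytic subunit of DNA polymerase alpha, by 2.66 ± 0.27, while E2f1 (0.10 ± 0.20) and Ccne2 (-0.22 ± 0.28) were not called. On the passage 2 arrays, where H4 probes differed by a median of -2.76, these S phase genes differed by a median of -0.14, and none was at least 2-fold lower on replicate 2.

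Of 20 genes for transcription and 3′ end processing of histone mRNA, 3 fell and none rose, and the median change was -0.11. Slbp was at -0.15 and 0.81 at passage 2 and at -1.21 and -1.50 at passage 7. It was lower on both passage 7 arrays, by 1.68 ± 0.38 (limma adjusted p = 0.0473), and was the higher of the passage 2 values on replicate 2, the array with the lower H4 and H2A levels. Casp8ap2 (FLASH), which joins the cleavage complex with LSM11, fell by 1.97 ± 0.21 (limma adjusted p = 0.0118). Npat, the coactivator of histone genes at the histone locus body, changed by -0.64 ± 0.25 and Lsm11 by -0.16 ± 0.19, and neither was called. The calls of Slbp were lost without either passage 7 array and that of Casp8ap2 without passage 7 replicate 2.

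Of 22 histone chaperones and assembly factors, 7 fell and none rose, with a median change of -0.47. Asf1b, which hands H3 and H4 to assembly factors in dividing cells, fell by 2.26 ± 0.24, Nasp, which keeps a reserve of soluble H3 and H4, by 2.00 ± 0.29, and the CAF-1 subunits Chaf1b and Chaf1a by 1.96 ± 0.25 and 1.19 ± 0.21. Of 10 histones made outside replication control, 4 fell and none rose, with a median of -0.76. Cenpa, the H3 of centromeres, fell by 2.26 ± 0.24, H2az1 by 1.65 ± 0.28 and H3f3b, one of the H3.3 genes, by 1.14 ± 0.22. H3f3a (-0.64 ± 0.21), H2ax (-0.69 ± 0.33) and H1f0 (-0.26 ± 0.23), the linker histone of resting cells, were not called. Calls in these lists depended on the passage 7 arrays: without replicate 1 or replicate 2, 1 of 10 histones, 3 of 22 chaperones and 10 or 8 of 29 S phase genes fell.

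**Figure D4:**
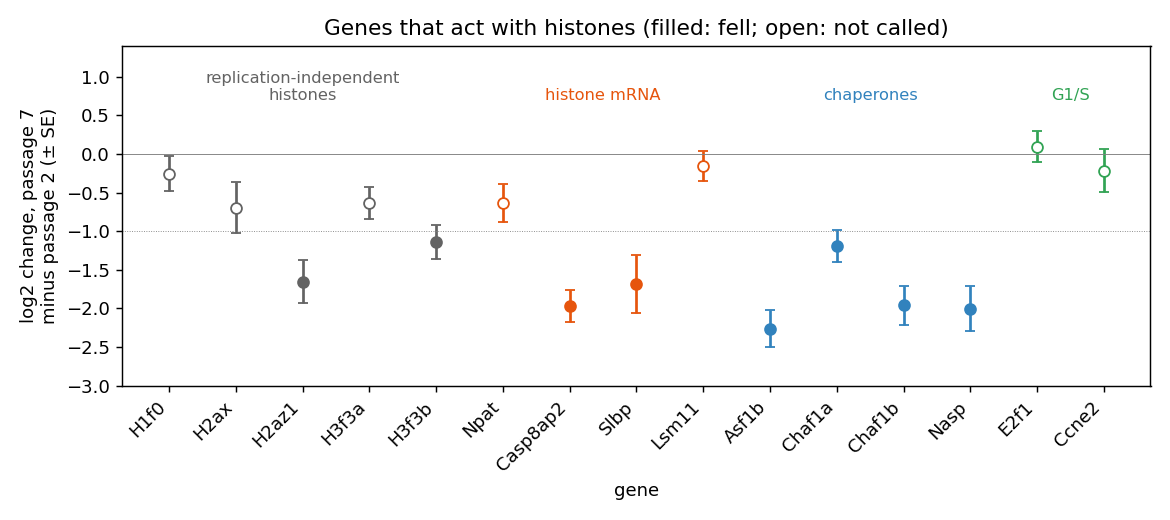
Log2 change from passage 2 to passage 7 (y axis, points with SE bars, 2 arrays per passage) of 15 genes that act with histones (x axis), by role. Filled points fell and open points were not called; the dotted line marks a 2-fold fall. Asf1b at -2.26 is the lowest, and none of the 15 rose.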

How the data were processed

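Cy3 intensities of 4 arrays, 2 per passage, were used. Per the file headers, the scanner images were read with Feature Extraction 10.5.1.1, and the deposited processed signal intensity is already background-subtracted. The authors' value table holds log2 values; its columns correlated with the log2 median signal at r = 0.9986 or more, their medians were 6.42, 6.41, 6.34 and 6.24, its scale and direction are therefore those of log2 signal, and its centring is not known. limma is named in the submitters' processing notes; other steps are not given in the sources used here.

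Here, the log2 processed signal was set relative to the 75th percentile of non-control spots on its array, outlier spots were left out (14 to 61 per array, among them 1 spot of H1f1), and spots of 1 probe were averaged. Probes were kept where both arrays of 1 passage or more were well above background, and were fitted by lmFit and eBayes of limma 3.58.1 (R 4.3.3) without covariates, which was tested on simulated data. Probes were named through their RefSeq accession. The array was designed on another genome build than the reference, so coordinates are given for promoters of GRCm38.p6 alone. Genes were named by rule: in each class the 3 with the highest level, the 2 largest called rises and falls and the 2 largest differences between passage 2 arrays; in other lists the 2 largest called rises and falls; and 15 genes whatever their values. The text also describes further members, chosen after their values were seen. Members and lists were chosen with earlier results of these data known. With 2 arrays per passage, the number of arrays sets the precision. Alternatives were other background corrections, scalings, filters, variance models, 1 value per gene, a block for the replicate number, and the omission of each array. The labels' replicate numbers are not said to mark a shared culture.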

Additional observations from a re-analysis of the deposited data

How the results depend on the processing

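Beside the main 33 rises and 2 falls among the histone probes, falls numbered 10 with scaling to the array median, 8 after quantile normalisation, 7 in the authors' value table and 7 with a trended, robust variance. They were 1 without a filter, 3 with probes well above background on all 4 arrays, 3 with 1 probe per gene, 1 with 1 value per gene as the mean of its probes, and 0 with normexp. Rises numbered 17 without a filter, 17 with 1 probe per gene, 18 with 1 value per gene and 0 with normexp. Normexp on the median signal with an offset of 50 called no probe on the whole array in limma; 24 histone probes had an unadjusted p under 0.05, and the median of all probes moved from 0.21 to 0.71. With the replicate block there were 0 rises and 0 falls, and none on the whole array, with 49 histone probes at an unadjusted p under 0.05. The deviations of same-numbered arrays from their passage means had a weak negative correlation (r = -0.21). The crossed replicate block, chosen after seeing the data as was the value per gene, gave 38 rises and 8 falls. Leaving out each array gave 0 to 56 rises and 0 to 5 falls. The change of H4c11 ranged from -2.29 without passage 2 replicate 2 to 1.52 without passage 2 replicate 1, and that of H4c2 from -2.02 to 1.44, with both called as rises in the second case; the 35 called histone probes kept their sign in every alternative that tested them. The median histone change was 0.56, from -0.12 without passage 2 replicate 2 to 1.39 with normexp, and the median difference between the passage 2 arrays was -0.93, from -1.02 to -0.54. A passage left with 1 array is taken to vary like the other passage. Signal over background limits the dim probes, most on passage 7 replicate 2, where 102 of the 117 histone probes were well above background against 108 to 112 on the other arrays.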
